A study of Mus musculus with 24 samples.

Results

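The nuclear-encoded subunits of the mitochondrial respiratory chain and ATP synthase were followed in ribosome-bound RNA from mouse spinal cord. Members were all genes whose symbols begin with Nduf a, b, c, s or v and a number, with Uqcr, with Cox4 to Cox8 or with Atp5, together with Sdha, Sdhb, Sdhc and Sdhd, and 1 pseudogene symbol was dropped. This gave 85 of the 38924 genes in the files, of which 37 belonged to complex I, 4 to complex II, 8 to complex III, 18 to complex IV and 18 to complex V. The rule used names alone, so 4 members stand apart by function: Cox7a2l promotes assembly of respiratory supercomplexes, Atp5s and Atp5sl code for accessory or assembly proteins, and Atp5l2 was matched by its identifier to a processed pseudogene. Ndufa4, now placed in complex IV, and its paired form Ndufa4l2 were counted with complex I by name in all sums, medians and counts by complex.

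The study asked how the C201R mutation of Gars, the glycyl-tRNA synthetase gene behind an inherited peripheral neuropathy, changes the ribosome-bound mRNA of motor neurons. Libraries were made by RiboTag: where Cre recombinase is active, Rpl22 of the large ribosomal subunit gains a haemagglutinin tag, and ribosomes pulled down by that tag bring their mRNA along. The 4 groups were C201R/+ mice with ChAT-Cre, wild-type mice with ChAT-Cre, C201R/+ mice without Cre and wild-type mice without Cre, with 6 mice and 6 libraries in each. All mice were 8 weeks old, were labelled with the background B6.CgxB6.129 and carried 1 tagged Rpl22 allele, including the mice without Cre, whose pulldowns measure RNA that binds without the tag. Cre came from the choline acetyltransferase locus, so the tag marks cholinergic cells, which in spinal cord include motor neurons and other cholinergic neurons. Each library came from 1 numbered mouse. In such a bulk pulldown, fewer cells of a type and less RNA per cell cannot be told apart.

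Complexes I to IV pass electrons from NADH or succinate to oxygen and, except complex II, pump protons out of the mitochondrial matrix, and complex V (ATP synthase) lets the protons back in to make ATP. Most subunits are encoded in the nucleus and made on cytosolic ribosomes, while a small core is encoded in mitochondrial DNA and made inside the organelle. Several complex IV subunits exist as paired genes, a widely used form and a form typical of heart and skeletal muscle, and COX6A is the classic pair: Cox6a1 is the general gene and Cox6a2 the striated muscle gene. Motor neurons keep very long axons supplied with ATP, and respiratory chain genes are abundant in them.

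The libraries held 12.11 M to 21.03 M counts in C201R pulldowns with Cre, 13.52 M to 28.29 M in wild-type pulldowns with Cre, 8.9 M to 14.3 M in C201R pulldowns without Cre and 9.14 M to 13.42 M in wild-type pulldowns without Cre. The noncoding transcript Gm26924 took 8.01% to 43.3% of counts in C201R and 7.45% to 30.8% in wild-type pulldowns with Cre, against 1.6% to 7.6% in C201R and 1.72% to 4.63% in wild-type pulldowns without Cre. The library numbers formed 2 runs, called library series 1 and 2, and the pulldowns with Cre held 3 C201R and 2 wild-type libraries of series 1 and 3 C201R and 4 wild-type libraries of series 2. C201R mouse 14003-1 and wild-type mouse 14701-9, both with Cre and both in series 1, stood apart from their groups, with mitochondrial transcripts at 15.8% and 17.1% of counts. The 6 cholinergic markers tested were all higher with Cre in both genotypes, and Chat was raised by 5.09 ± 0.34 in C201R and 3.59 ± 0.32 in wild type (log2 fold change ± SE, adjusted p = 6.17e-09 and 1.93e-07, edgeR quasi-likelihood test). Between the genotypes with Cre, 1 of those 6, Chodl, was lower in C201R, with a log2 fold change of -1.02 (adjusted p = 0.000635, edgeR).

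Among the subunits, ATP synthase and complex IV genes were the most abundant per unit of length. In TPM, a share of all transcripts corrected for gene length, Atp5b, the catalytic beta subunit of ATP synthase, averaged 2096 ± 1649 in C201R and 4072 ± 1735 in wild-type pulldowns with Cre (SD, n = 6 each), and Cox4i1, a structural subunit of complex IV, averaged 1815 ± 395 in C201R, against 1688 ± 294 in wild type. Ndufa4, long counted with complex I and now placed in complex IV, averaged 2010 ± 515 TPM in C201R and 1680 ± 372 TPM in wild type with Cre. Uqcrh, the hinge protein of complex III, averaged 1203 ± 295 TPM in C201R and 1146 ± 149 TPM in wild type. The complex II genes were the lowest of the leading members: Sdha, its catalytic flavoprotein, averaged 160 ± 96.6 TPM in C201R and 235 ± 79.6 TPM in wild type. The second member by level in each complex was Atp5g3, Cox5a, Ndufb8, Uqcr10 or Sdhc. All other levels are CPM (counts scaled by library size, with 1 TMM scaling across the 24 libraries), and they are compared between groups and not between genes. The TPM means have no such scaling and shift with the Gm26924 and mitochondrial shares. They serve to rank genes and not to compare the genotypes.

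Summed over complex I, the level was 2057, 3214 and 5289 CPM (lowest, median, highest) in C201R and 1740, 2105 and 3205 CPM in wild-type pulldowns with Cre, against 467, 642 and 823 CPM in C201R and 527, 681 and 926 CPM in wild-type pulldowns without Cre. Complex IV gave 1442, 2408 and 4008 CPM in C201R, against 1229, 1473 and 2350 CPM in wild type with Cre. Without Cre it gave 287, 376 and 479 CPM in C201R, against 292, 337 and 513 CPM in wild type. Every library with Cre lay above every library without it in both sums, while the 2 genotypes overlapped. Complex II was the flattest, with medians with Cre of 500 CPM in C201R, against 461 CPM in wild type, and without Cre of 229 CPM in C201R, against 239 CPM in wild type. Within C201R pulldowns with Cre, the 3 libraries of series 1 held the 3 highest sums for complexes I, III, IV and V, and these libraries also carried the highest Gm26924 shares of the group. Its part in these levels was not tested.

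**Figure D1:**
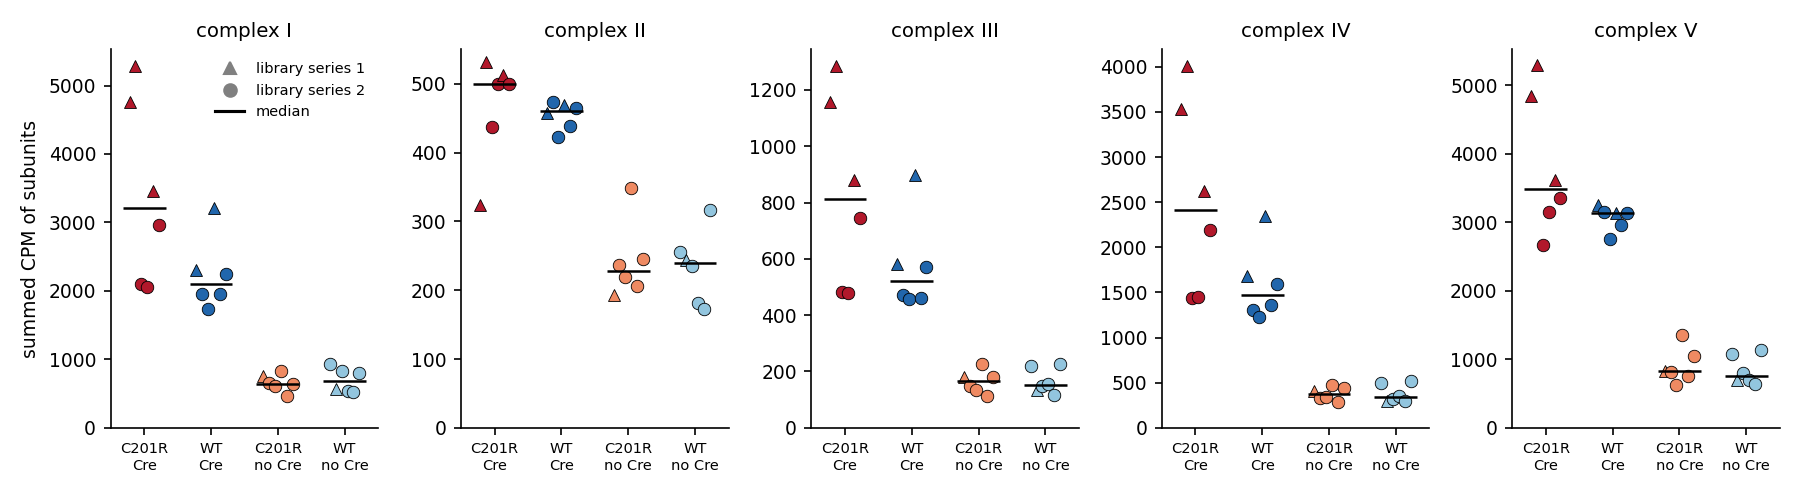
Summed CPM of the subunits of complexes I to V (vertical axis, linear from 0) in each of the 24 libraries, by group; triangles are library series 1, circles library series 2, and bars are group medians. Libraries with Cre lie above those without Cre except for C201R mouse 14003-1 in complex II (324 CPM against a highest value of 348 CPM without Cre), and the C201R libraries of series 1 reach the highest sums of complexes I, III, IV and V.

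Nearly all subunits were enriched by the cholinergic pulldown in both genotypes. With Cre against without Cre, 74 of 77 members tested were called higher and 0 lower in C201R (adjusted p under 0.05, edgeR quasi-likelihood test with library series as a term and Benjamini-Hochberg adjustment over all genes), where 30.5% of the 14335 genes tested were called higher and 56.8% in either direction. In wild type 74 of 76 were higher and 0 lower, against 27.7% of 14264 genes called higher and 60.6% called in either direction. The median log2 fold change of the members was 2.21 in C201R and 1.70 in wild type, beside medians over all genes of 0.065 in C201R and -0.097 in wild type. By complex, the medians in C201R were 2.21 for complex I, 1.72 for II, 2.11 for III, 2.54 for IV and 2.16 for V, and in wild type 1.67, 1.11, 1.53, 1.86 and 1.75 in the same order.

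The largest enrichments in C201R, among members averaging at least 10 CPM, were those of Atp5l (subunit g of ATP synthase), Cox7a2 (a complex IV subunit), and the complex I accessory subunits Ndufb3, Ndufs5, Ndufb6 and Ndufc2. Atp5l measured 99.6, 282 and 616 CPM with Cre (lowest, median, highest), against 9.87, 20.3 and 44.4 CPM without Cre, in C201R mice. Its log2 fold change there was 3.16 ± 0.30 (adjusted p = 2.32e-07, edgeR), and the groups did not overlap. In wild type the largest were those of Atp5d (the delta subunit of ATP synthase), Atp5o (which ties its catalytic head to the peripheral stalk), Ndufb3, Cox7b, Ndufc2 and Ndufa11. Atp5d measured 105, 136 and 152 CPM with Cre, against 11.4, 15.2 and 30.3 CPM without Cre, in wild-type mice. Its log2 fold change there was 2.67 ± 0.24 (adjusted p = 2.05e-07, edgeR), again with no overlap. The other named members rose by 2.94 (Ndufc2 and Ndufb6) to 3.08 (Cox7a2) in C201R and by 2.30 (Ndufa11) to 2.57 (Atp5o) in wild type, on the log2 scale.

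The weakest called enrichment in both genotypes was that of Sdha, with 150, 248 and 286 CPM with Cre against 124, 165 and 246 CPM without Cre in C201R, and 216, 265 and 306 CPM with Cre against 123, 162 and 230 CPM without Cre in wild type. Its log2 fold changes were 0.61 ± 0.18 in C201R (adjusted p = 0.00783) and 0.54 ± 0.16 in wild type (adjusted p = 0.00676, edgeR), and the groups overlapped in both. The call in C201R was lost in 4 of 22 alternatives, among them the fit without C201R mouse 14003-2 (adjusted p = 0.0703, edgeR), and the call in wild type in 1 of 22. Cox7a1, the muscle form of COX7A, was not called in either genotype, nor was Atp5sl in C201R. The Gm26924 share moved with Cre, and with its log2 share as a further covariate 1 member was called in C201R (median 0.86) and 33 in wild type (median 0.88). Over all genes that fit called 3.24% in C201R and 40.2% in wild type. With library totals as the scaling the medians were 2.72 in C201R and 2.63 in wild type, where the median over all genes moved to 0.647 and 0.842.

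**Figure D2:**
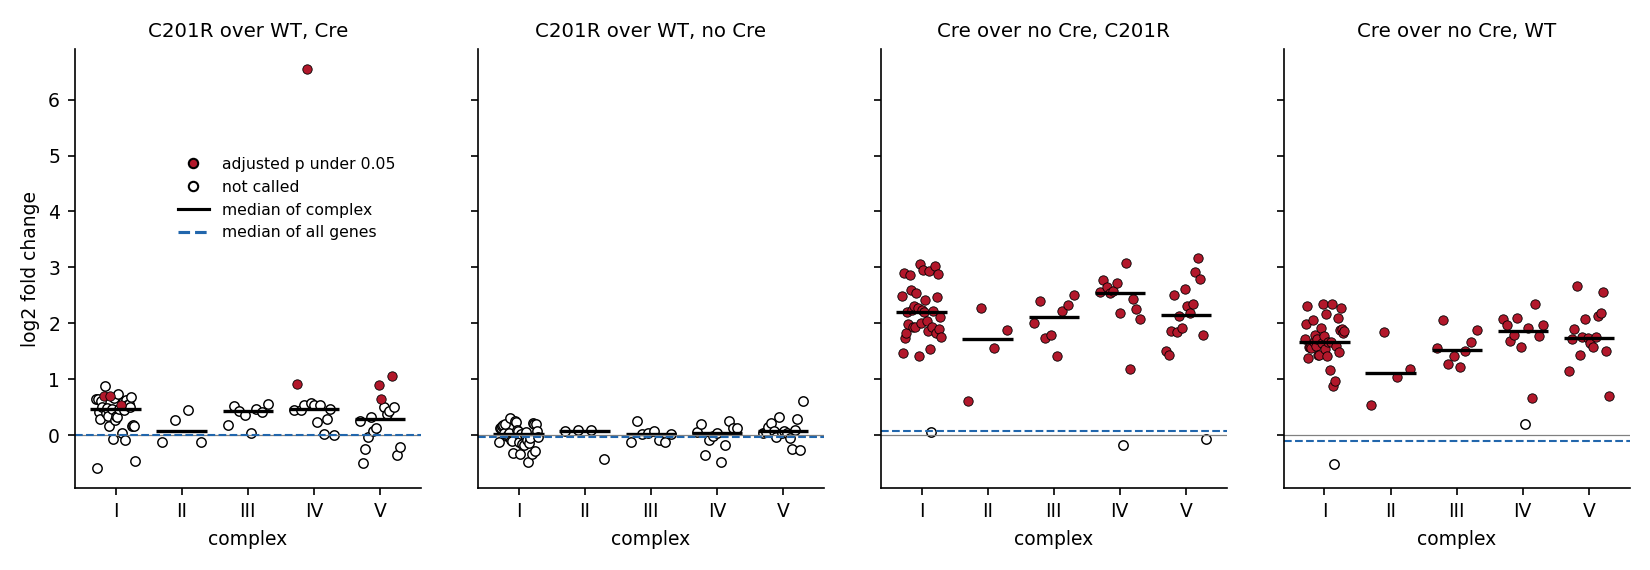
Log2 fold change (vertical axis) of each tested member by complex (horizontal axis), for C201R over wild type with Cre, C201R over wild type without Cre, Cre over no Cre in C201R and Cre over no Cre in wild type; filled points have an adjusted p under 0.05, black bars are medians of a complex and dashed lines medians of all genes. Nearly all members lie well above the dashed line in the panels for Cre, and 1 point, Cox6a2 at 6.54, stands far above the rest in C201R over wild type with Cre.

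Between the genotypes with Cre, 8 of 77 members were called higher in C201R and 0 lower (edgeR, adjusted p under 0.05), where 2.29% of the 14634 genes tested were called higher and 1.82% lower, 4.11% in all. The median log2 fold change of the members was 0.437, beside -0.006 over all genes, and 65 of the 77 had a positive sign. The median was 0.47 in complex I, 0.08 in complex II, 0.42 in complex III, 0.46 in complex IV and 0.30 in complex V. Apart from Cox6a2, described further on, the 7 members called were Ndufa4, Ndufb9, Ndufb10, Cox5a, Atp5g3, Atp5h and Atp5l, and each lost its call in 8 to 15 of 22 alternative fits. The count of 8 fell to between 1 and 5 when C201R mouse 14003-4 or 14703-4, or wild-type mouse 14002-6, 14004-3, 14004-6, 14702-3 or 14703-5, was left out. Over all genes these fits called 1.14% to 2.54%.

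Among symbols of complex I, Ndufa4 measured 235, 465 and 805 CPM (lowest, median, highest) in C201R, against 176, 227 and 410 CPM in wild type. Its log2 fold change was 0.70 ± 0.18 (adjusted p = 0.0415, edgeR), and 3 of the 6 C201R libraries lay above every wild-type library. Ndufb10, an accessory subunit of the membrane arm, measured 58.1, 107 and 181 CPM in C201R, against 48.3, 57.1 and 87.7 CPM in wild type. It rose by 0.71 ± 0.19 on the log2 scale (adjusted p = 0.0475), and Ndufb9, another membrane-arm subunit, rose by 0.54 ± 0.14 (adjusted p = 0.0377, both edgeR). For each of the 2, 4 of the 6 C201R libraries lay above every wild-type library. The complex I members farthest below 0 were Ndufa10 and Ndufv3, with log2 fold changes of -0.59 and -0.47 (adjusted p = 0.115 and 0.15, edgeR). No gene of complexes II or III was called, and Sdha had a log2 fold change of -0.12 ± 0.12 (adjusted p = 0.659) and Uqcrh of 0.42 ± 0.20 (adjusted p = 0.284, edgeR).

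In complex IV, Cox5a, a structural subunit, measured 174, 438 and 800 CPM in C201R, against 146, 164 and 401 CPM in wild type. Its log2 fold change was 0.92 ± 0.22 (adjusted p = 0.033, edgeR), with 3 C201R libraries above every wild-type library. In complex V, Atp5g3, 1 of the genes for the membrane ring subunit c, measured 264, 552 and 1029 CPM in C201R, against 197, 239 and 504 CPM in wild type. It rose by 0.89 ± 0.20 on the log2 scale (adjusted p = 0.0233, edgeR). Atp5l, with 99.6, 282 and 616 CPM in C201R against 71.6, 95.3 and 265 CPM in wild type, rose by 1.06 ± 0.27 (adjusted p = 0.0412), and Atp5h, subunit d of the peripheral stalk, rose by 0.65 ± 0.17 (adjusted p = 0.0464, both edgeR). Groups overlapped for all 3, and the highest wild-type value of each came from mouse 14701-9.

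The catalytic subunit Atp5b went the other way without passing the test: 322, 569 and 969 CPM in C201R, against 360, 933 and 1177 CPM in wild type, a log2 fold change of -0.51 ± 0.21 (adjusted p = 0.208, edgeR). Its lowest values were those of mouse 14003-1 in C201R and mouse 14701-9 in wild type. Without these 2 mice 17 of 77 members were called higher and 2 lower. Over all genes that fit called 13.3%, with 954 of 14672 higher and 996 lower, against 4.11% in the fit as reported. The 2 lower members were Atp5b (-0.59, adjusted p = 0.0196, edgeR) and the complex I subunit Ndufa10.

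Taken within each library series, the ratio of mean CPM of C201R over wild type with Cre was 2.24 in series 1 and 1.61 in series 2 for Atp5g3. In the same order it was 2.33 and 1.61 for Cox5a, 2.64 and 1.75 for Atp5l, and 1.93 and 1.42 for Ndufa4. For Atp5b it was 0.696 in series 1 and 0.70 in series 2. The direction was the same in both series for these 5 genes. Series 1 held 3 C201R and 2 wild-type libraries, and series 2 held 3 C201R and 4 wild-type libraries. Atp5g3, Cox5a, Atp5l and Ndufa4 were named because the fit over both series called them, so their agreement is no independent check. With series 2 alone, 5 of 77 members were called, where 8.97% of all genes were called, so the count is no excess over all genes. The member median was 0.249, beside 0.019 over all genes. Without the series term, with library totals, with a replicate block on the prefix of the mouse number, or with the Gm26924 covariate, Cox6a2 was the single member called. Over all genes these fits called 0.219% to 1.98%. The Gm26924 share with Cre had a median of 26.9% in C201R and 10.7% in wild type, and its part in the 7 smaller changes was not tested beyond that covariate.

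**Figure D3:**
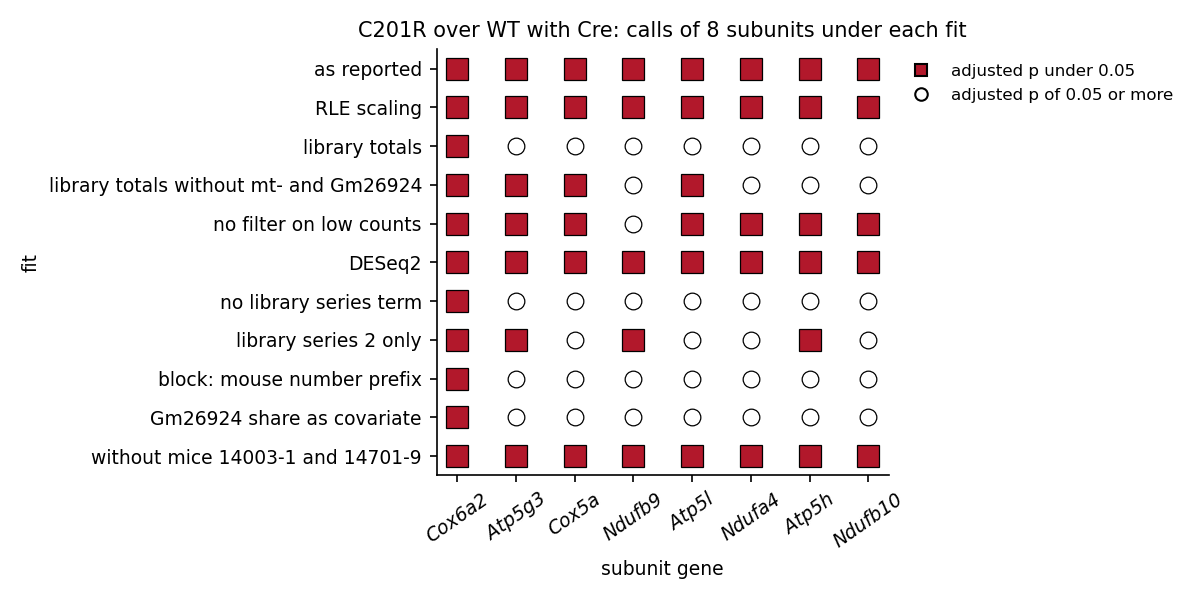
The 8 members called in C201R over wild type with Cre (horizontal axis, by p) under the fit as reported and 10 alternatives (vertical axis); filled squares are adjusted p under 0.05 and open circles 0.05 or more. Cox6a2 is filled in all 11 fits, and the other 7 genes are open in 4 fits or more.

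Cox6a2 set the genotypes apart. The gene codes for the striated muscle form of COX6A, a regulatory subunit of complex IV, and GENCODE M21 places it on the minus strand at chr7:128205435-128206387 (GRCm38). It was counted 123, 174, 95, 136, 114 and 197 times in C201R pulldowns with Cre, against 1, 1, 0, 10, 0 and 0 times in wild-type pulldowns with Cre. Without Cre it was counted 18, 24, 3, 2, 5 and 9 times in C201R and 11, 1, 4, 0, 1 and 24 times in wild type. In CPM the C201R libraries with Cre lay between 2.87 and 22.7, and the wild-type libraries with Cre between 0 and 0.95, so the groups did not overlap, and the 10 counts were those of mouse 14701-9.

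The log2 fold change of Cox6a2 between C201R and wild type with Cre was 6.54 ± 0.86 (adjusted p = 0.000752, edgeR), and the gene passed the filter on low counts through the C201R libraries alone. From summed counts, 839 in C201R and 12 in wild type, the scaled ratio was 99.5, with an exact 95% binomial interval of 56.7 to 193 that covers counting error only. Without mouse 14701-9 the sums were 839 and 2 and the ratio 564 (156 to 4664). Within library series 1 the means were 12.97 CPM in C201R, against 0.49 CPM in wild type, and within series 2 they were 5.09 CPM in C201R, against 0.00569 CPM in wild type. Over the 22 alternatives, 12 of which each left out 1 library, the log2 fold change ran between 5.64 and 8.90 and the adjusted p reached 0.0369 at most, under a replicate block on the prefix of the mouse number (edgeR).

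**Figure D4:**
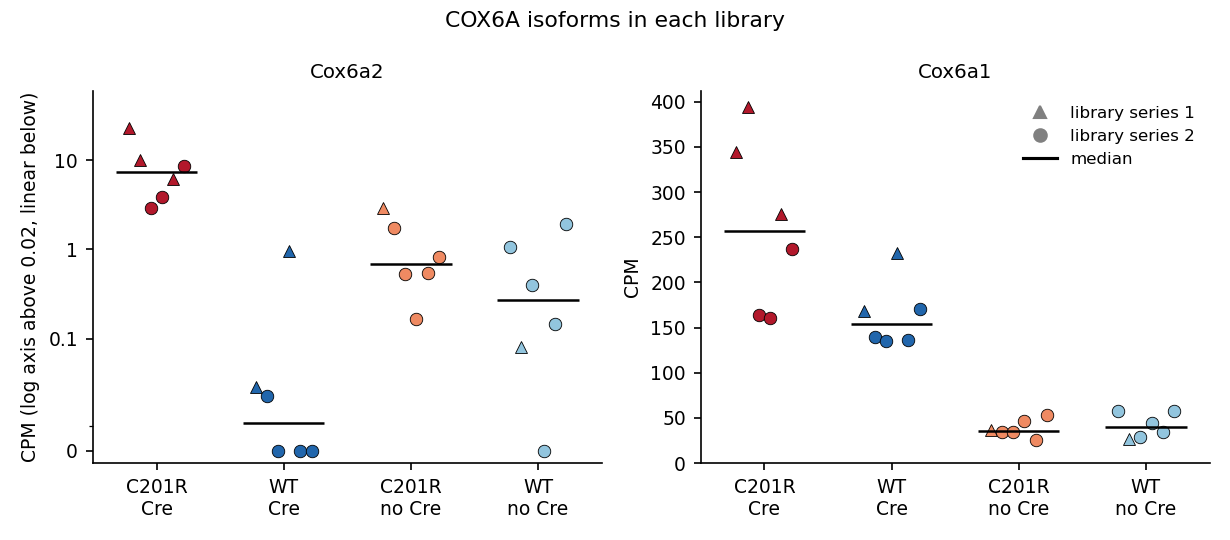
CPM of Cox6a2 (left, logarithmic axis above 0.02 and linear below) and Cox6a1 (right, linear axis) in each of the 24 libraries by group; triangles are library series 1, circles library series 2, and bars are medians. All C201R libraries with Cre lie at 2.87 CPM or more of Cox6a2 and all wild-type libraries with Cre at 0.95 CPM or less, while the 2 groups overlap for Cox6a1.

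Cox6a1, the general form, was the main COX6A transcript in every library. It measured 160, 256 and 394 CPM in C201R, against 135, 154 and 233 CPM in wild type with Cre, and 25.4, 35.8 and 52.8 CPM in C201R, against 26.2, 39.5 and 57.8 CPM in wild type without Cre. Between the genotypes with Cre its log2 fold change was 0.53 ± 0.15 (adjusted p = 0.0656, edgeR), and the groups overlapped. Per library, Cox6a2 made up 1.42% to 5.17% of the COX6A pair in TPM in C201R pulldowns with Cre, against 0% to 0.338% in wild-type pulldowns with Cre. Without Cre it made up 0.292% to 6.07% in C201R, against 0% to 2.65% in wild type, so the pulldowns without Cre reached as high. With Cre against without Cre in C201R the log2 ratio differed by 0.409 and did not pass (exact permutation test, adjusted p = 0.5779). The mean log2 ratio of Cox6a2 to Cox6a1 was -5.38 ± 0.68 in C201R and -11.97 ± 1.97 in wild type with Cre (SD, n = 6 each, 0.1 TPM added). The difference of 6.58 had the smallest p that an exact 2-sided permutation test of 6 against 6 allows (p = 0.002165, adjusted p = 0.007035 over 13 ratio tests). The pair met the minimum of counts for this test through the 6 C201R libraries and mouse 14701-9 alone, and with no minimum the adjusted p was 0.009524 (exact permutation test). Because 3 wild-type libraries had 0 TPM of Cox6a2, the size of the difference depends on the added TPM, and it was 4.14 with 1 TPM added.

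The levels of 11 striated muscle markers are given beside Cox6a2. None was called between the genotypes with Cre (0 of 11, median log2 fold change 1.42). Their summed level was 36.1, 76.2 and 401 CPM (lowest, median, highest) in C201R and 5.24, 12.2 and 296 CPM in wild type with Cre, and 28.6, 177 and 730 CPM in C201R, against 8.61, 149 and 726 CPM in wild type without Cre. Ckm, the muscle creatine kinase, lay between 0.509 and 11.6 CPM in C201R and between 0.0308 and 5.39 CPM in wild type with Cre, and none of the 11 markers was at 0 in all 6 libraries of a group. For each 100 counts of these markers, Cox6a2 had 5.65 to 21.04 counts in C201R pulldowns with Cre, against 0 to 0.375 in wild type with Cre, 0.314 to 1.08 in C201R without Cre and 0 to 0.94 in wild type without Cre. Wild-type mouse 14702-6 without Cre had 9148 marker counts and 24 of Cox6a2, and mouse 14701-9 with Cre had 3116 and 10. C201R mouse 14703-4 with Cre had 936 and 197. The part of muscle RNA in the Cox6a2 difference was not tested beyond these counts.

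**Figure D5:**
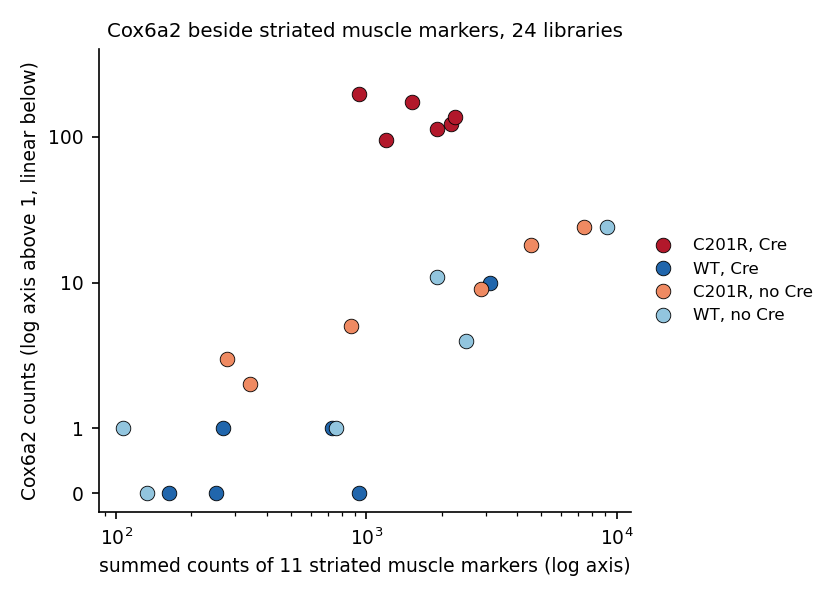
Cox6a2 counts (vertical axis, logarithmic above 1 and linear below) against the summed counts of 11 striated muscle markers (horizontal axis, logarithmic) in 24 libraries, coloured by group. The 6 C201R libraries with Cre lie at 95 to 197 Cox6a2 counts, above the 18 other libraries at every level of the markers, which hold 24 counts at most.

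Cox6a2 lies inside the span of Itgad, an integrin gene on the opposite strand, and exons of the 2 overlap in GENCODE M21. Whether counting used strand is not given in the sources used here. Itgad summed to 3 counts in C201R and 8 in wild type with Cre, and without Cre to 26 in C201R, against 12 in wild type. All Cox6a2 counts were whole numbers in every library. Cox6a2 was also higher with Cre than without in C201R, with a log2 fold change of 2.58 ± 0.53 (adjusted p = 0.000499, edgeR), and this call was lost with the Gm26924 covariate (0.66, adjusted p = 0.845). The gene entered this test through the C201R libraries with Cre, where it was high, so the call adds no independent support for the genotype difference. In wild type and between the genotypes without Cre Cox6a2 did not pass the filter on low counts.

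No other muscle or tissue form of complex IV passed the test between the genotypes with Cre. Cox7a1 measured 0.218, 0.935 and 2.4 CPM in C201R, against 0.611, 0.85 and 1.2 CPM in wild type with Cre, with a log2 fold change of 0.24 ± 0.57 (adjusted p = 0.871, edgeR). Cox8b, the muscle form of COX8, had at most 9 counts in any library, and Cox4i2 (a lung and hypoxia form), Cox6b2 and Cox8c (testis forms), Cox7b2 and Ndufa4l2 had at most 34, 24, 2, 4 and 22, so that these genes were not tested. Ndufa4, the partner of Ndufa4l2, was among the members called. The other general partners did not pass: with Cre, C201R over wild type, the log2 fold change was 0.45 ± 0.15 for Cox4i1 (adjusted p = 0.116), 0.58 ± 0.23 for Cox6b1 (adjusted p = 0.182), 0.29 ± 0.16 for Cox7b (adjusted p = 0.35) and -0.01 ± 0.16 for Cox8a (adjusted p = 0.985, all edgeR). Atp5g2 was listed at 0 in all 24 libraries and Atp5l2 reached 2.27 counts at most. The listed 0 of Atp5g2 cannot tell an absent transcript from reads that were not assigned to the gene, and this was not tested.

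Of the 11 isoform pairs, 4 had enough counts for a ratio test (at least 10 counts of both genes in 6 of 12 libraries). Cox7a2l to Cox7a2 was lower with Cre than without in both genotypes. The log2 TPM ratio averaged -1.22 ± 0.50 with Cre against 0.90 ± 0.43 without in C201R, and -0.63 ± 0.18 with Cre against 0.63 ± 0.31 without in wild type (SD, n = 6 each, exact permutation test, adjusted p = 0.007035 for both). Neither pair of groups overlapped. With Cre the same ratio was lower in C201R than in wild type by 0.59, with overlap (exact permutation p = 0.01732, adjusted p = 0.04502), and this call was lost in 10 of 17 alternatives. Cox7a1 to Cox7a2 was lower with Cre than without in C201R, at -5.68 ± 1.03 against -2.48 ± 1.19 (exact permutation test, adjusted p = 0.007035), where Cox7a2 had a log2 fold change of 3.08 and Cox7a1, not called, of -0.18. In wild type that ratio averaged -5.03 ± 0.51 with Cre, against -4.07 ± 2.53 without, and did not pass (exact permutation test, adjusted p = 0.4948). Atp5g1 to Atp5g3 did not pass in any comparison, and with Cre it averaged -1.59 ± 0.64 in C201R and -0.78 ± 0.77 in wild type (exact permutation test, adjusted p = 0.1648).

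Without Cre no subunit passed the test between the genotypes. Of 75 members tested 0 were called (edgeR), 0 had an unadjusted p under 0.05 and DESeq2 also called 0, where 0% of 14400 genes were called by edgeR, 455 had an unadjusted p under 0.05 and DESeq2 called 2. The median log2 fold change was 0.041 beside -0.036 over all genes, and the members ranged between -0.486 and 0.602. The test of whether the genotype change differed with and without Cre called 0 of 77 members, where 0.13% of 16109 genes were called (0.0993% higher and 0.031% lower), and 14 members had an unadjusted p under 0.05, as did 1461 of all genes tested. For Cox6a2 that difference was 5.98 ± 1.32 on the log2 scale with an adjusted p of 0.0697 (edgeR), and it passed in 6 of 34 alternatives, over which the adjusted p ran between 0.000499 and 0.209. Those that passed were DESeq2, series 2 alone, and the fits without mice 14003-1 and 14701-9 together or without mouse 14701-9, 14701-1 or 14702-4 singly. In the fit as reported Cox6a2 again passed the filter on low counts through the C201R libraries with Cre. For the 7 other members called with Cre the adjusted p of that difference lay between 0.236 (Ndufb10) and 0.572 (Atp5h).

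Shorter subunit transcripts tended to have the larger genotype change. Across 76 members without Cox6a2, Spearman's rho between transcript length and the log2 fold change of C201R over wild type with Cre was -0.43. It was -0.36 for Cre in C201R, -0.16 for Cre in wild type and 0.11 (75 members) for C201R over wild type without Cre. These are descriptions across genes of the same libraries, and genes are not independent replicates. The 38 members shorter than the median length of 687 bases had a median log2 fold change of 0.491 with Cre, and the 38 longer members 0.266.

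Some promoters of the subunits hold motifs of the nuclear respiratory factors, and 2 are printed since Cox6a1 is the general partner of Cox6a2 and Atp5h is a member called with Cre that holds both motifs. RefSeq promoters (GRCm38.p6) were matched for 66 of the 85 members, and the 250 bases before the start site were searched on both strands for the NRF-1 consensus motif and the ETS motif CCGGAAG, which GABP (NRF-2) binds. The NRF-1 letters occurred in 13 of 66 members (19.7%), against 4.23% of 27025 genes, and the ETS letters in 12 (18.2%), against 7.83%. The sequences run 5′ to 3′ on the strand of the gene, with the motifs on either strand in capitals; the motifs do not overlap in them.
Cox6a1, chr5:115348959-115349208, minus strand: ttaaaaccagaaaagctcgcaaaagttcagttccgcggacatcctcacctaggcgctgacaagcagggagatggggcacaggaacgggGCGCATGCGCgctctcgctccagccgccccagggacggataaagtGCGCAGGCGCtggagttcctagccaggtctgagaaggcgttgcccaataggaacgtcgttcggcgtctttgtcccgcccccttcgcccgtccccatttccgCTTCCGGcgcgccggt
Atp5h, chr11:115419920-115420169, minus strand: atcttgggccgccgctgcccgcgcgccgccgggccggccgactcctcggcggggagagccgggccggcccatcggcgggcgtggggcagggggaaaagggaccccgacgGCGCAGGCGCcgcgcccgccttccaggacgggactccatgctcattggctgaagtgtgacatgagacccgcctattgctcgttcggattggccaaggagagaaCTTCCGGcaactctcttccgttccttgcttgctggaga
Cox6a1 holds the NRF-1 letters 2 times and the ETS letters 1 time, and Atp5h holds each 1 time. Members with and without the NRF-1 letters had these median log2 fold changes: 0.467 (12 members) and 0.416 (50) for C201R over wild type with Cre, and 2.311 and 2.232 for Cre in C201R. A match is a description of letters and not of binding.

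Other mitochondrial gene lists moved unevenly with the subunits. The 13 subunits encoded in mitochondrial DNA were all lower with Cre than without (13 of 13 in each genotype, median log2 fold change -3.67 in C201R and -4.59 in wild type), opposite to their nuclear partners. They are made inside the organelle, so a pulldown of tagged cytosolic ribosomes does not measure their translation. Of the 13 TCA cycle enzymes, 12 were higher and 1 lower with Cre in each genotype, where 30.5% of all genes were called higher in C201R and 27.7% in wild type. Of the mitochondrial ribosomal proteins, 69 of 76 were higher and 1 lower in C201R, and 58 of 75 higher and 1 lower in wild type. Of the assembly factors, 33 of 44 were higher and 0 lower in C201R, and 24 of 45 higher and 1 lower in wild type, and the 6 subunits and partners outside the naming rule were all higher in both. Of the 12 regulators of mitochondrial biogenesis, 2 were higher and 0 lower in C201R (median -0.100), and 2 were higher and 2 lower in wild type (median 0.064).

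Between the genotypes with Cre, 0 of 12 biogenesis regulators were called, and Ppargc1a, the coactivator PGC-1alpha, had a log2 fold change of -0.36 ± 0.27 (adjusted p = 0.519, edgeR). None of the 13 mitochondrially encoded subunits, the 13 TCA cycle enzymes or the 6 subunits outside the rule was called, 2 of 76 mitochondrial ribosomal proteins, Mrpl24 and Mrps33, were higher, and 1 of 45 assembly factors, Cox15 of haem A synthesis, was lower (-0.63 ± 0.16, adjusted p = 0.0354, edgeR). Over all genes 2.29% were called higher and 1.82% lower, so the counts for ribosomal proteins and assembly factors are near the share over all genes. Of 20 import genes 4 were higher, with a median of 0.184 over the list: Hspe1, the chaperone Hspa9 (0.81 ± 0.10), the carrier chaperone Timm10 (0.74 ± 0.18) and the chaperonin Hspd1 (0.71 ± 0.18, log2 fold change ± SE). Hspe1, the matrix co-chaperonin, measured 133, 231 and 319 CPM in C201R, against 60.4, 64.4 and 96.9 CPM in wild type, with a log2 fold change of 1.59 ± 0.15 (adjusted p = 2.41e-05, edgeR) and no overlap. Of 10 genes listed for mitochondrial quality control and the stress response 8 were higher, with a median of 1.38, and 3 of them are chaperones shared with the import list. The list also holds Ddit3, Atf5, Fgf21 and Gdf15, which are not particular to mitochondria. Whether the stress was mitochondrial was not tested. Atf5, a stress-response transcription factor, measured 4.97, 17.2 and 21.9 CPM in C201R, against 1.36, 2.27 and 2.62 CPM in wild type (log2 fold change 2.92 ± 0.33, adjusted p = 0.000162, edgeR). Fgf21, a secreted stress hormone, had 402 to 920 counts in C201R, against 0 to 5 in wild type. The stress list was chosen with earlier results of these data known, so its count is no independent evidence of a direction.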

How the data were processed

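RNA from RiboTag pulldowns of 24 mouse spinal cords was analysed, 6 per group, grouped by genotype and Cre as the labels give them. The authors deposited per-gene expected counts and TPM, and the submitters' processing notes name RSEM 1.2.12 and Bowtie2 2.2.0. Build, annotation and strand setting are not given in the sources used here. Expected counts were rounded and tested with edgeR 4.0.16 in R 4.3.3 (filterByExpr, TMM scaling, robust quasi-likelihood F test, library series as a term), with Benjamini-Hochberg adjustment over all genes tested and a threshold of 0.05. CPM used 1 TMM scaling over 24 libraries. Isoform ratios were log2 TPM ratios with 0.1 TPM added, tested by exact 2-sided permutation. P-values measure the spread between these mice. The fit was tested on counts simulated for C201R over wild type with Cre, with 200 of 14400 genes changed. It recovered 30.9% of 2-fold and 69% of 4-fold changes, and 7.5% of its calls were wrong. Changes of these sizes can therefore go uncalled. No 2 libraries of a group agreed within sampling noise (chi-square per degree of freedom 22.16 to 883.31 over 60 pairs). Alternatives were other scalings, no filter, DESeq2 1.42.0, no series term, series 2 alone, a prefix block, a Gm26924 covariate and libraries left out. Named genes were those of the isoform pairs, members called between genotypes, the 6 largest called enrichments in each genotype among members averaging at least 10 CPM, the 2 most abundant members of each complex, and the leading called genes of each list; Ndufa10, Ndufv3 and Atp5sl were named after their values were seen, and 1 item is not reported here. The members and lists were chosen with earlier results of these data known. Genes overlapping another gene or sharing reads with a copy are uncertain: 29 members had fractional counts in some library.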

Additional observations from a re-analysis of the deposited data

Results flagged for a closer look

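In 21 of 124 groups of 6 libraries checked, 1 library lay far from the other 5. The cutoff flags about 1 in 20 independent groups of normally spread values. The groups here reuse the same 24 libraries for different genes, so their count cannot be set against that rate. Of these, 14 came from wild-type mouse 14701-9 with Cre, whose mitochondrial share of counts was 17.1%. It was highest of its group for Atp5l (264.6 CPM, the others 71.55 to 114.2), Ndufb3 (138.6, the others 47.54 to 64.57), Ndufb6 (61.06, the others 34.32 to 44.09), Ndufc2 (153.1, the others 72.99 to 100.8) and Ndufa11 (95.15, the others 41.96 to 59.78). It was also highest for Atp5g3 at 503.9 CPM, Uqcrh at 353.1 CPM, Cox5a at 401.3 CPM, Sdhc at 157.7 CPM, Atp5h at 284.0 CPM, Cox6a1 at 232.8 CPM and Cox6a2 at 0.9505 CPM, and for the complex III sum at 898.4 CPM. For Atp5b it was lowest, at 359.5 CPM, the others lying between 899.1 and 1177 CPM. Among C201R libraries with Cre, mouse 14003-1 was highest for Cox6a2 at 22.66 CPM (the others 2.867 to 10.07) and mouse 14003-4 for Atp5d at 184.9 CPM (the others 101.3 to 129.7). In C201R without Cre, mouse 14004-8 was highest for Ndufs5 (22.55 CPM) and the complex II sum (348.1 CPM), and mouse 14003-2 was lowest for Cox7a2l (18.13 CPM). In wild type without Cre, mouse 14004-4 was highest for Ndufc2 (33.24 CPM) and Sdhc (63.55 CPM).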

How the results depend on the processing

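For C201R over wild type with Cre, 8 of 77 members were called, where 4.11% of all genes were. Counts under the alternatives follow, with the share of all genes called in brackets. Library totals gave 1 (0.219%), and library totals without mitochondrial transcripts and Gm26924 gave 4 (1.47%). DESeq2 gave 18 (9.18%), no library series term 1 (1.98%) and series 2 alone 5 (8.97%). A replicate block on the mouse number prefix gave 1 (0.513%) and the Gm26924 share as a covariate 1 (0.779%). Without mice 14003-1 and 14701-9 the count was 19 (13.3%). Calls over all genes thus rose and fell too. Leaving out 1 library at a time gave 1 to 9 members, with 170 to 936 of all genes called. The labels do not say what the prefix marks, so the block tests a shared number only. For Cre in C201R, library totals gave a median of 2.719. The Gm26924 covariate gave 1 call and a median of 0.86, where 3.24% of all genes were called. For Cre in wild type, library totals gave a median of 2.626. The Gm26924 covariate gave 33 calls among 76 members and a median of 0.879, where 40.2% of all genes were called. The difference of the genotype change with and without Cre, 0 calls, gave 1 with DESeq2, 1 with series 2 alone, 1 without the 2 mice and 0 to 1 leaving out 1 library. Over all genes 0.13% were called as reported, 0.714% with DESeq2, 0.157% with series 2 alone and 0.263% without the 2 mice. Of 13 isoform ratio tests 5 passed, and leaving out 1 library 4 to 7. With series 2 alone 0 passed, and there the tests between genotypes with Cre had too few libraries to pass. With no minimum of counts 19 of 44 passed. Among these were tests of Atp5g2 to Atp5g3, where Atp5g2 was 0 in all 24 libraries and only Atp5g3 moved the ratio. Tests of Cox8c, Cox7b2 and Ndufa4l2, with at most 2, 4 and 22 counts, were also among them. The rise to 19 is therefore not a result about the pairs. The Cox6a2 to Cox6a1 difference with Cre was 7.305 in series 2 alone (p = 0.05714, adjusted p = 0.1061, exact permutation test of 3 against 4 libraries). The 2 groups did not overlap there, and this p is the smallest that the 2-sided test gives for 3 against 4. The test could therefore not pass in series 2 alone. With 1 TPM added in place of 0.1 the difference was 4.136. The cause of these shifts was not tested. The member median without Cre, 0.041, ran between -0.125 and 0.127, so its sign turned under some alternatives; no called result changed direction. With 0 to 10 wild-type counts of Cox6a2, the size of its fold change is imprecise.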
